A study of Mus musculus with 2 samples.

Results

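The collagen chains are the genes whose whole symbol reads Col, a number, a and a number (Col1a1, Col4a2 and so on). This rule took 44 of the 28006 features of the count tables, and no measured level was used to choose them. They were described across the stromal, endothelial and blood cells recovered from mouse femurs. All 44 chains had at least 1 UMI (a unique molecular identifier, which counts 1 captured RNA molecule) in the named cells, and 28 of them reached a mean of at least 10 CPM (UMIs of the chain per 1000000 UMIs of the class) in at least 1 cell class. The other 16 are given by their range at the end.

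Single-cell RNA-seq was run on femur cells of 2 mice, called Mouse #1 and Mouse #2, at postnatal day 28 after a tamoxifen injection at day 21. Both mice carried 1 Cxcl12 allele with GFP in it and 1 intact allele, the Cxcl12-iCreER transgene, which is carried on a bacterial artificial chromosome and expresses a tamoxifen-dependent Cre under Cxcl12 control, and 1 R26R-tdTomato allele that Cre switches on. No untreated animal and no animal with 2 intact Cxcl12 alleles was sequenced, so each comparison is between cell classes of the same animals. The labels give GFP+ marrow mesenchymal cells as the sorted fraction, while their extraction text names tdTomato+ cells. The paper states that the cells of these 2 mice were sorted with a gate on high GFP. Growth plates at the distal end and the proximal ends had been removed, and the cells were freed with enzymes, which limits the recovery of bone-embedded cells.

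The libraries held 54940400 and 88790688 UMIs in Mouse #1 and Mouse #2, and 2750 and 4582 cells passed the limits on genes and mitochondrial UMIs, with medians of 12966.5 and 12190 UMIs per cell. Cell barcodes shared by both libraries numbered 7. The cells were clustered without any collagen gene, and clusters were named from fixed markers. This gave 1249 and 2449 reticular-like cells (Adipoq, Lpl, Cp), 418 and 790 preosteoblast-like cells (Alpl, Ibsp, Postn), 14 and 62 osteoblast-like cells (Bglap, Bglap2, Ifitm5), 75 and 228 periosteal-like cells (Thy1, Clec3b, Aspn), 150 and 136 endothelial-like cells and 723 and 712 hematopoietic cells. The presence of blood and endothelial cells goes against the label of mesenchymal cells for the whole sort. A barcode with 1 to 100 UMIs holds no cell, and the sum of such barcodes was taken as free RNA, the background that reaches every droplet.

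Collagens are the main proteins of the extracellular matrix, and each is built from chains that wind in groups around one another into a rigid helix. Fibril-forming chains such as those of types I, III, V and XI make the ropes of bone, cartilage and connective tissue; type IV chains make the mesh of basement membranes under endothelium, type VI chains make beaded filaments around cells, and type VIII chains make hexagonal sheets. In bone, osteoblasts secrete type I collagen as the scaffold for mineral, while the reticular cells of the marrow lie along sinusoids and make the niche of blood-forming cells.

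The helix needs glycine as 1 residue of each triplet, so the coding sequence shows which chains form long uninterrupted rods. The stretches below show the first 8 triplets of the longest glycine repeat in the main chains of 3 groups compared later, with glycine codons in capitals. They were read from the GENCODE M21 transcripts on GRCm38, the assembly that mm10 names.
Col1a1: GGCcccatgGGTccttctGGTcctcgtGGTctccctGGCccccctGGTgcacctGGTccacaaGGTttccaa
Col3a1: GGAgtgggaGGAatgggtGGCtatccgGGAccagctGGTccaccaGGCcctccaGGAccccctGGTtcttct
Col4a1: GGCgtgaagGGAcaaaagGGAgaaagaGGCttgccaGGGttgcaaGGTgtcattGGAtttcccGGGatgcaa
The Col1a1 stretch starts at codon 168, the Col3a1 stretch at codon 164 and the Col4a1 stretch at codon 43 of the annotated transcript. The longest run without a break held 216 to 344 triplets in the fibrillar chains (median 338) and 39 to 66 triplets in the type IV chains (median 43.5). It held 37 to 87 triplets in the beaded-filament chains and 60 or 61 triplets in the hexagonal-network chains. Col1a1 lies at chr11:94936224-94953042 on the plus strand, Col1a2 at chr6:4504814-4541544 on the plus strand and Col3a1 at chr1:45311538-45349706 on the plus strand. Col4a1, at chr8:11198423-11312826 on the minus strand, and Col4a2, at chr8:11312805-11449287 on the plus strand, start head to head.

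Osteoblast-like cells devoted the greatest share of their RNA to collagen chains. Collagen made up 20.7% of UMIs in Mouse #1 and 21.4% in Mouse #2 in these cells, against 4.53% and 4.34% in periosteal-like cells, 1.496% and 1.97% in preosteoblast-like cells and 1.08% and 1.30% in reticular-like cells. In endothelial-like cells the share was 0.565% and 0.714%, and in hematopoietic cells 0.0747% and 0.290%. No class overlapped its neighbour in this order over both mice. Free RNA held 1.08% and 1.80% collagen, which is the makeup of the background and not the amount it adds to a cell. The endothelial-like and hematopoietic shares were smaller than this makeup in both mice. The reticular-like share was close to it in Mouse #1 and smaller in Mouse #2. For the 28 described chains, hematopoietic cells held a median of 0.0764 and 0.141 of the free RNA level. Reticular-like and endothelial-like shares lay above the hematopoietic shares in both mice.

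**Figure D1:**
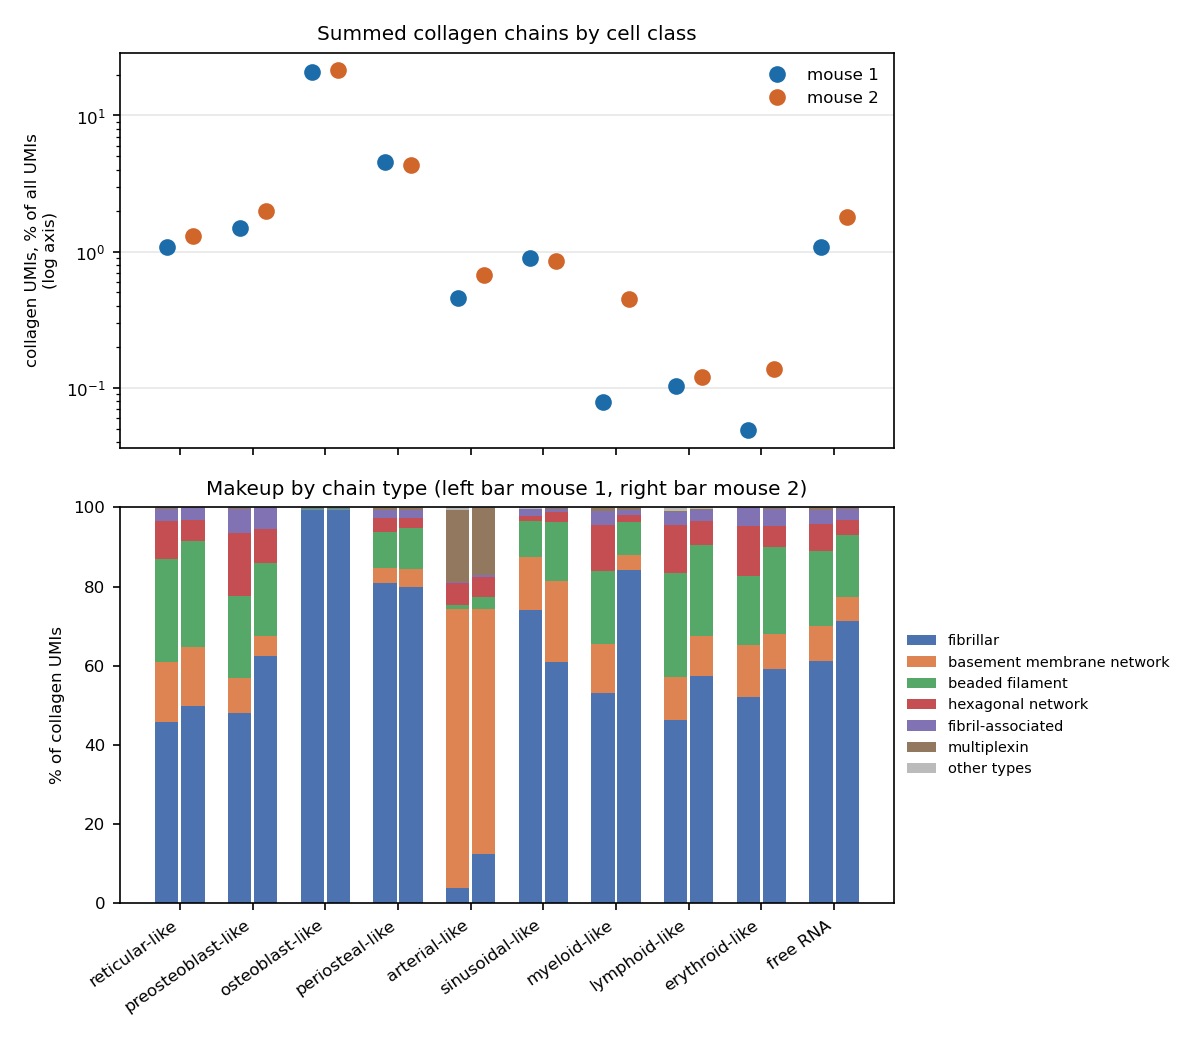
The upper panel plots the UMIs of all 44 chains as a percent of all UMIs in each cell class and in free RNA, on a log axis, with 1 point per mouse; the stacked bars below give the percent of collagen UMIs by chain type (left bar Mouse #1, right bar Mouse #2). Osteoblast-like cells sit highest at 20.7% and 21.4%, and basement-membrane chains fill 70.60% and 62.08% of the arterial-like bars.

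The order also held for the single cells. The median cell had 16.6% and 22.5% collagen among osteoblast-like cells, 4.40% and 4.04% among periosteal-like cells, 1.31% and 1.59% among preosteoblast-like cells and 1.01% and 1.19% among reticular-like cells. Arterial-like endothelial cells had medians of 0.323% and 0.471%, and myeloid-like cells had medians of 0.0103% and 0.0418%.

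The kinds of chain differed between classes as well as their amount. Fibrillar chains were 99.35% and 99.24% of collagen UMIs in osteoblast-like cells and 80.97% and 79.98% in periosteal-like cells. In reticular-like cells fibrillar chains were 45.67% and 49.84% of collagen UMIs, beaded-filament chains 25.80% and 26.72%, and basement-membrane chains 15.38% and 14.89%. In arterial-like cells the basement-membrane chains led with 70.60% and 62.08%, and the multiplexins Col15a1 and Col18a1, which join basement membranes to the matrix around them, followed with 18.27% and 16.88%. Type I collagen dominated the whole count: Col1a1 and Col1a2 together were 59.4% of the collagen UMIs of the named cells.

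The 28 described chains had their highest mean level in different classes: 10 in periosteal-like, 9 in osteoblast-like, 4 in preosteoblast-like, 3 in endothelial-like and 2 in reticular-like cells. None was highest in hematopoietic cells. The highest class was the same in both mice for 22 of the 28 chains. Levels below are in CPM of the summed cells of 1 class and mouse, first for Mouse #1 and then for Mouse #2; since reads came from the 3′ end they were not divided by length, and they are compared between classes for the same chain.

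**Figure D2:**
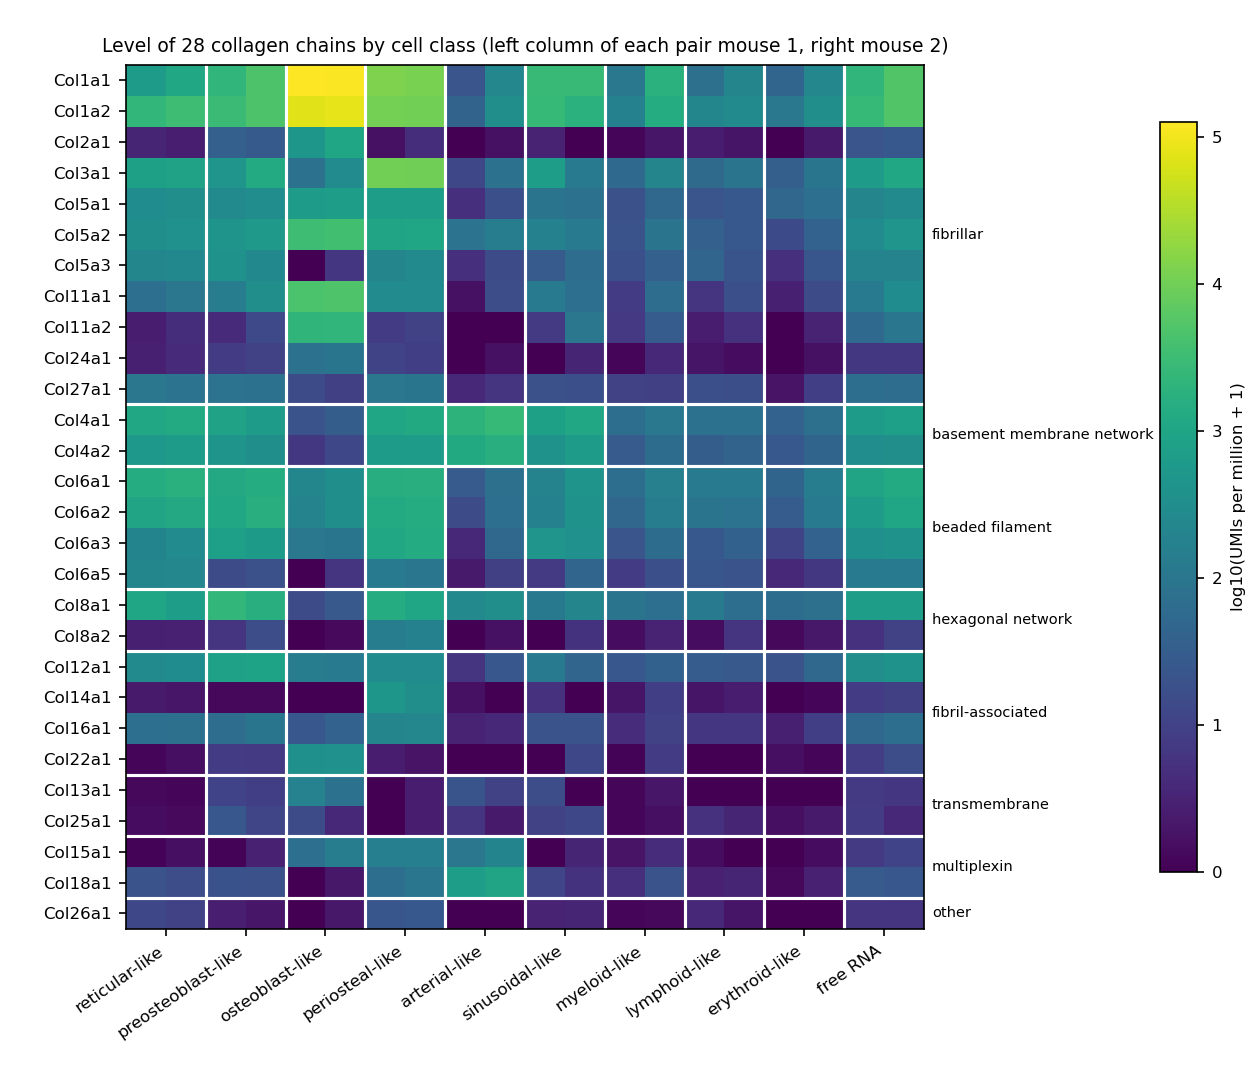
Level of the 28 described chains (rows, grouped by chain type) in each cell class and in free RNA (pairs of columns, left Mouse #1, right Mouse #2), as log10 of UMIs per 1000000 plus 1, with lighter colours for higher levels. The type I chains are lightest in the osteoblast-like columns, Col4a1 and Col4a2 are dark there, and Col18a1 is lightest in the arterial-like columns.

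The first question was how bone-forming cells differ from preosteoblast-like cells. Osteoblast-like cells were higher in the fibrillar chains Col1a1, Col1a2, Col2a1, Col11a1, Col11a2, Col5a1 and Col5a2 and lower in Col4a1, Col4a2, Col8a1, Col5a3, Col6a1, Col6a2 and Col6a3. Of 28 chains tested 11 were higher and 10 were lower in osteoblast-like cells (edgeR's quasi-likelihood test on sums per mouse, adjusted p under 0.05), where 32.8% of all 11244 genes tested were called in either direction (17.5% higher, 15.3% lower, and 31.8% of the genes outside those used for clustering). Of 11 fibrillar chains 8 rose and 2 fell, both basement-membrane chains fell, and 3 of 4 beaded-filament chains fell. Relative to total UMIs, the TMM scaling of edgeR shifted the log2 fold change of every gene by 0.86 in this comparison, and with total UMIs as the scale 11 chains were called higher and 16 lower, where 6.25% of all genes were called higher, 55.9% lower and 62.1% in either direction.

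Type I collagen is the main protein of bone. Col1a1, its alpha 1 chain, stood at 121097 and 119248 CPM in osteoblast-like cells, while preosteoblast-like cells held 2294 and 4638 CPM. The groups were far apart in both mice, with a log2 fold change of 5.97 ± 0.37 (SE, n = 2 mice per class; edgeR adjusted p = 5.42e-05). Col1a2, the alpha 2 chain, stood at 73319 and 80267 CPM against 3039.7 and 4811 CPM, a log2 fold change of 5.14 ± 0.27 (edgeR adjusted p = 3.42e-05).

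Types V and XI set the width of the fibrils that type I and type II build. Col11a1 had 4429 and 4957 CPM in osteoblast-like cells and 142 and 327 CPM in the preosteoblast-like cells. Col11a2 had 2220.3 and 2277 CPM against 3.11 and 12.3 CPM, the greatest fitted rise of any chain here with a log2 fold change of 8.95 ± 0.60 (edgeR adjusted p = 6.06e-05). A Col11a2 UMI was seen in 14 of 14 and 60 of 62 osteoblast-like cells. Its level in preosteoblast-like cells lay below the 55.1 and 97.5 CPM of free RNA. Col5a2 rose by 3.65 ± 0.20 on the log2 scale from 443 and 564 to 3340.1 and 3661 CPM, and Col5a1 by 2.06 ± 0.17 from 281 and 316 to 645 and 734 CPM. Another chain of type V, Col5a3, went the other way, with 0 and 5.43 CPM in osteoblast-like cells and 408 and 243 CPM in preosteoblast-like cells (log2 fold change -5.36 ± 0.48, edgeR adjusted p = 1.89e-04).

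Since both type XI genes rose together, the 250 bases before their RefSeq starts (GRCm38.p6) are shown, on the plus strand, with matches to the letters TATAA or CCAAT in capitals.
Col11a1 promoter: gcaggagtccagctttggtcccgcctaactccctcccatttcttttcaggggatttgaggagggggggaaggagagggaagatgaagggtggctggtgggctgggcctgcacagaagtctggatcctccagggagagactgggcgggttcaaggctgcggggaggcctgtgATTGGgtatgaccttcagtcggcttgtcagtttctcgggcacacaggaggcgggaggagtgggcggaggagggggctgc
Col11a2 promoter: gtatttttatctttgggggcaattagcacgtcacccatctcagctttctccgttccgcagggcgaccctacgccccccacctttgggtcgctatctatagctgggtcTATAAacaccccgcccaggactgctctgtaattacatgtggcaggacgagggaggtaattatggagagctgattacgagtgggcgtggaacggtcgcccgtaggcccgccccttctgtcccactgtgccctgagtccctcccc
The Col11a1 window is chr3:114030290-114030539 and the Col11a2 window is chr17:34038888-34039137. Both strands were searched. The Col11a1 window held 1 CCAAT on the minus strand, printed as ATTGG, and no TATAA; the Col11a2 window held 1 TATAA and no CCAAT. RefSeq windows were matched for 35 of the 44 chains, some with more than 1 start, which gave 38 windows. TATAA was in 7 of these 38 windows (18.4%) and in 22.8% of all 32851 promoter windows, and CCAAT was in 13 of 38 (34.2%) and in 33.8% of all windows. The 2 motifs do not overlap in letters, and a match is a description of the letters only.

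Col2a1, the chain of cartilage fibrils, had 490.0 and 1004 CPM in osteoblast-like cells, above the 35.03 and 26.9 CPM of preosteoblast-like cells, a log2 fold change of 5.46 ± 0.35 (edgeR adjusted p = 5.48e-05). The 2 groups did not overlap, and free RNA held 20.8 and 24.5 CPM. The signal was uneven among cells: 9 of 14 and 29 of 62 osteoblast-like cells had a Col2a1 UMI, and the 5 cells with most of it held 91.4% and 83.6% of its UMIs. Of 7 chondrocyte markers, 3 had UMIs in the osteoblast-like cells, and Acan, Matn3, Ucma and Matn1 were at 0 in both mice. Hapln1 stood at 7.66 and 2.89 CPM (4 and 8 UMIs), above its 0.141 and 0.278 CPM in preosteoblast-like cells, and Chad at 3.83 and 1.81 CPM (2 and 5 UMIs), above 0.141 and 0.209 CPM. Sox9 stood at 13.4 and 8.68 CPM, below its 41.7 and 58.1 CPM in preosteoblast-like cells. The sum over the 7 markers came to 24.9 and 13.4 CPM for osteoblast-like cells, below the 42.5 and 58.8 CPM reached by preosteoblast-like cells, and their part in the Col2a1 difference was not tested. Bglap, the osteoblast hormone osteocalcin, stood at 79540 and 49449 CPM in the same osteoblast-like cells.

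Among chains with more restricted roles, Col22a1, a fibril-associated chain of tissue junctions, rose from 6.64 and 6.47 to 356 and 383 CPM. Col24a1, a fibrillar chain known from bone, rose from 7.204 and 8.49 to 78.5 and 95.1 CPM, and Col13a1, which spans the cell membrane, from 9.61 and 7.94 to 184 and 77.8 CPM. The log2 fold changes of these chains were 6.67 ± 0.19, 4.33 ± 0.18 and 4.60 ± 0.41. Col15a1 stood at 70.8 and 135 CPM against 0.141 and 1.95 CPM, so that its osteoblast-like level was near that of endothelial-like cells (78.6 and 158 CPM).

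Col8a1, a chain of hexagonal networks, fell most: it had 13.4 and 26.0 CPM in osteoblast-like cells and 2358 and 1664 CPM in preosteoblast-like cells, a log2 fold change of -5.65 ± 0.30 (edgeR adjusted p = 3.70e-05). Col4a1 fell by 3.94 ± 0.26 on the log2 scale, to 19.1 and 31.1 CPM from 880.3 and 634 CPM, and Col4a2 fell by 4.39 ± 0.26. The type VI chains Col6a1, Col6a2 and Col6a3 fell with log2 fold changes of -1.35 ± 0.22, -1.495 ± 0.27 and -1.93 ± 0.20, and Col12a1, which decorates fibrils, with one of -1.85 ± 0.18. The level of Col3a1, the partner of type I in soft tissue, was 80.4 and 284 CPM against 453 and 1304 CPM. It did not pass the test (log2 fold change -1.35 ± 0.58, edgeR adjusted p = 0.115). With mouse as a block it passed (edgeR adjusted p = 6.61e-13), a value that leans on a spread pooled over genes. The osteoblast-like sums rest on 14 and 62 cells. In a further fit over all classes, 1 mouse was left out of the 2 classes compared only, which set 1 sum against 1 sum. Its spread came from the other classes, which kept both mice. A call in that fit therefore does not measure the spread between mice in the classes compared. Of the 21 called chains 17 were called with either mouse left out, and Col6a1, Col6a2, Col6a3 and Col18a1 were not.

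**Figure D3:**
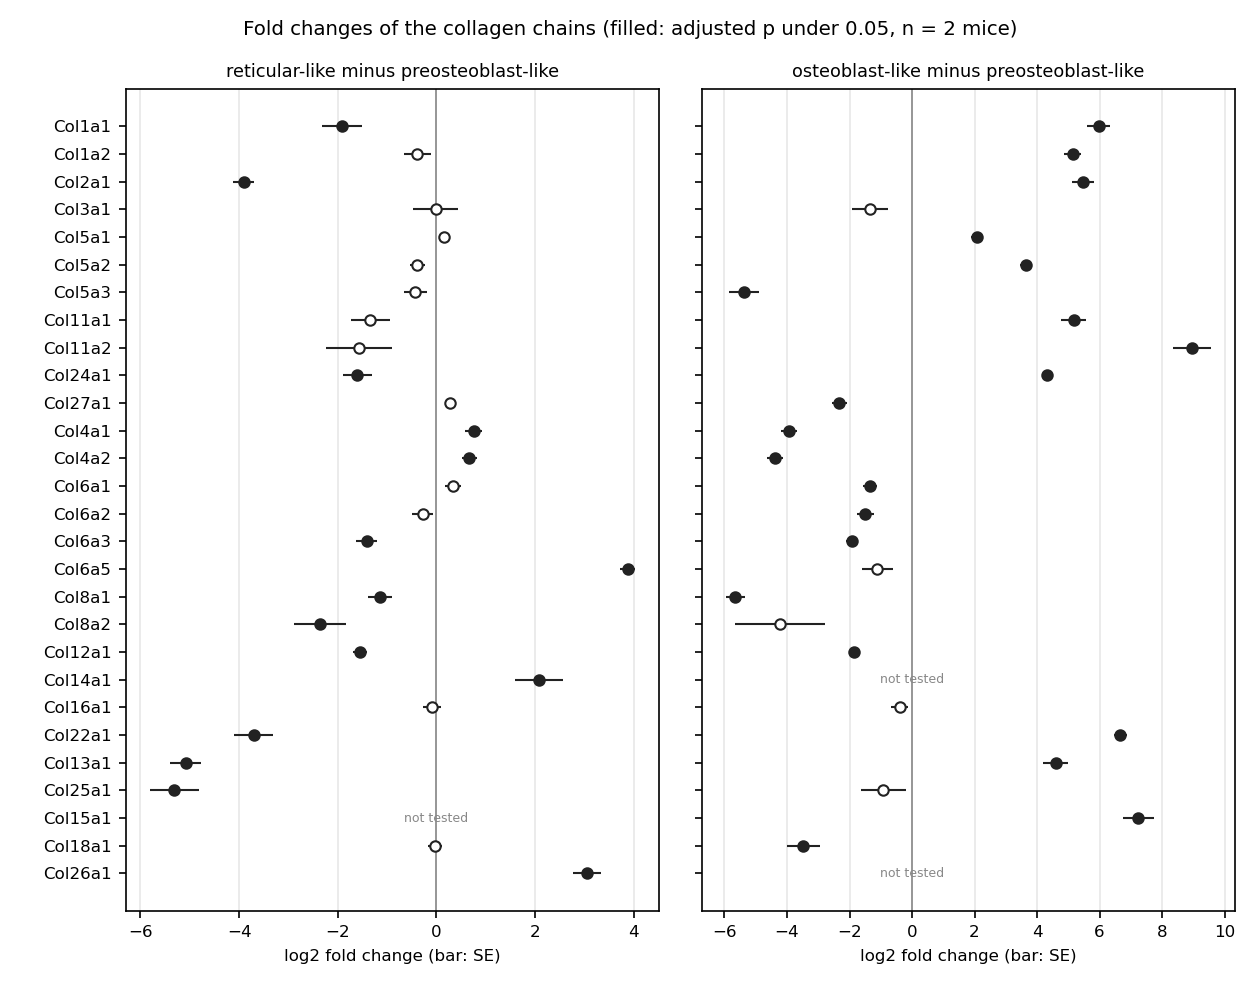
Log2 fold change (points, with bars of 1 SE, 2 mice per class) of each described chain for reticular-like minus preosteoblast-like cells (left) and osteoblast-like minus preosteoblast-like cells (right), with called chains filled and the axes scaled separately. In the right panel Col11a2 lies at 8.95 and Col8a1 at -5.65, and in the left panel Col6a5 lies at 3.88 and Col25a1 at -5.31.

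The next comparison set reticular-like against preosteoblast-like cells, the 2 large stromal classes of the marrow. Reticular-like cells were higher in Col4a1, Col4a2, Col6a5 and Col26a1, and lower in Col1a1, Col8a1, Col12a1, Col6a3 and a set of low chains. Of 33 chains tested 6 were higher and 10 lower, where 29.4% of all 12961 genes tested were called (15.2% higher, 14.2% lower, and 27.7% of the genes outside those used for clustering). Of 11 fibrillar chains 3 were lower and none was higher.

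Col6a5, a type VI chain, had 215 and 231 CPM in reticular-like cells, while preosteoblast-like cells held 13.8 and 17.5 CPM. Both reticular-like values lay far above both others, with a log2 fold change of 3.88 ± 0.15 (edgeR adjusted p = 2.03e-04). With each cell thinned to 2000 UMIs, a Col6a5 UMI was found in 30.9% (95% Wilson interval 28.4 to 33.5) and 34.7% (32.8 to 36.6) of reticular-like cells, in 3.83% and 2.92% of preosteoblast-like cells and in 2.22% and 2.39% of hematopoietic cells. Without thinning the reticular-like shares were 67.3% and 70.8%. The widespread type VI chains Col6a1 and Col6a2 did not pass the test, with log2 fold changes of 0.34 ± 0.16 (edgeR adjusted p = 0.162) and -0.28 ± 0.21 (adjusted p = 0.36), whereas Col6a3, with 196 and 294 against 767 and 607 CPM, was lower by a log2 fold change of -1.41 ± 0.22.

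Col4a1 stood at 1137 and 1296 CPM in reticular-like cells, above the 880.3 and 634 CPM of preosteoblast-like cells (log2 fold change 0.76 ± 0.17, edgeR adjusted p = 0.024). Col4a2 stood at 529 and 634 against 425 and 344 CPM (log2 fold change 0.67 ± 0.15, edgeR adjusted p = 0.0215). The classes did not overlap for either chain, and the differences were small beside those of Col6a5.

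Col8a1 had 1041 and 687 CPM in reticular-like cells and 2358 and 1664 CPM in preosteoblast-like cells (log2 fold change -1.15 ± 0.24, edgeR adjusted p = 0.0196). After thinning, 63.8% and 53.1% of reticular-like cells and 90.9% and 87.8% of preosteoblast-like cells had a Col8a1 UMI, against 6.09% and 7.04% of hematopoietic cells. Col12a1 had 263 and 307 against 831 and 919.6 CPM (log2 fold change -1.55 ± 0.13, edgeR adjusted p = 0.00119).

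Col1a1 stood at 663 and 1102 CPM in reticular-like cells, below the 2294 and 4638 CPM of preosteoblast-like cells (log2 fold change -1.91 ± 0.40, edgeR adjusted p = 0.019). Free RNA held 2314 and 5234 CPM of Col1a1, above both classes, while hematopoietic cells held 0.0384 and 0.195 of the free RNA level. Col1a2, the partner chain, had 2427 and 3329.9 against 3039.7 and 4811 CPM and did not pass the test (log2 fold change -0.38 ± 0.27, edgeR adjusted p = 0.332). For Col3a1 the levels overlapped, with 791 and 882 against 453 and 1304 CPM.

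Several chains were near absent from reticular-like cells. Col13a1 had 0.304 and 0.197 CPM there and 9.61 and 7.94 CPM in preosteoblast-like cells, and Col25a1, another membrane-spanning chain, had 0.487 and 0.328 against 23.0 and 10.8 CPM. Col2a1 had 2.37 and 1.64 CPM against 35.03 and 26.9 CPM. The reverse held for Col26a1, with 11.6 and 8.997 against 1.70 and 1.04 CPM (log2 fold change 3.05 ± 0.29, edgeR adjusted p = 0.00162). Col6a6 was at 0 UMIs in preosteoblast-like cells of both mice, and no fold is given for it. With mouse as a block 6 chains were higher and 14 lower (36.9% of all genes called); Col11a1 (adjusted p = 1.98e-04), Col11a2 (adjusted p = 0.00109), Col5a2 (adjusted p = 0.0358) and Col23a1 (adjusted p = 0.047) joined the lower ones. Without Mouse #1 or Mouse #2, in a fit over all classes, 7 and 6 chains were called (9.28% and 5.0% of genes), against 11 with both (23.1%). Col12a1, Col2a1, Col6a5, Col13a1, Col26a1 and Col25a1 were called with either mouse left out, and Col1a1, Col8a1, Col4a1 and Col4a2 were not.

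Periosteal-like cells, named for the sheath on the outer surface of bone, were next set against reticular-like cells. They were higher in type I and III collagen, in Col5a1, Col5a2 and Col11a1 and in several chains of connective tissue. Of 31 chains tested 14 were higher and 1 was lower, where 12.9% of all 12348 genes tested were called higher, 9.60% lower and 22.5% in either direction (20.4% of the genes outside those used for clustering). With mouse as a block 17 were higher and 1 lower (27.6% of genes called).

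Col3a1, the reticulin chain of soft connective tissue, stood at 10542 and 9875 CPM in periosteal-like cells, while reticular-like cells held 791 and 882 CPM. No other class came near these values, and the log2 fold change was 3.70 ± 0.13 (edgeR adjusted p = 3.10e-05). Col1a1 had 13069 and 11976 CPM against 663 and 1102 CPM (log2 fold change 3.91 ± 0.26, edgeR adjusted p = 2.65e-04), and Col1a2 had 10805 and 10526 against 2427 and 3329.9 CPM (log2 fold change 1.98 ± 0.17).

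The sharpest contrasts were in low chains. Col14a1, which binds to the surface of fibrils, had 489 and 327 CPM in periosteal-like cells and 1.34 and 1.02 CPM in reticular-like cells (log2 fold change 8.55 ± 0.30, edgeR adjusted p = 3.42e-05). It had no UMI in osteoblast-like cells of either mouse, which allows up to 5.74 and 1.09 CPM there. Col8a2 had 145 and 170.1 against 1.83 and 2.00 CPM (log2 fold change 6.44 ± 0.15), and Col15a1 had 156 and 157 against 0.122 and 0.591 CPM (log2 fold change 8.60 ± 0.32).

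Col6a3, at 1161 and 1356 CPM, was higher in periosteal-like cells (log2 fold change 2.45 ± 0.21), and Col16a1, at 205 and 229 CPM against 72.3 and 74.9 CPM, was higher too (log2 fold change 1.65 ± 0.10). Col6a5 was the lower chain, with 127 and 99.7 against 215 and 231 CPM (log2 fold change -0.91 ± 0.15, edgeR adjusted p = 0.0072). The type IV chain Col4a1 had 1047 and 1228 against 1137 and 1296 CPM, with a log2 fold change of -0.01 ± 0.13 (adjusted p = 0.976), and Col6a1 had one of 0.06 ± 0.13 (adjusted p = 0.792). When 1 mouse was left out, in the fit over all classes, 5 chains were called without Mouse #1 (7.66% of genes) and 4 without Mouse #2 (4.98%), against 13 with both (19.8%). Col6a3, Col14a1, Col8a2 and Col15a1 were called either way, and Col1a1, Col1a2 and Col3a1 were not.

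Endothelial cells were asked about next, since type IV collagen is the mesh they lie on. Against reticular-like cells, endothelial-like cells were higher in Col4a1, Col4a2, Col15a1, Col18a1, Col13a1 and Col25a1 and lower in 16 chains, out of 30 tested; 49.7% of all 12497 genes tested were called in this comparison (25.0% higher, 24.7% lower, and 47.2% of the genes outside those used for clustering). Both multiplexins rose, all 4 beaded-filament chains tested fell, and of 11 fibrillar chains 7 fell and none rose. Col13a1 and Col25a1 were low, with means over the mice of 12.8 and 4.72 CPM in endothelial-like cells. Reticular-like cells held 0.251 and 0.408 CPM of them, and free RNA 5.97 and 4.84 CPM.

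Col18a1, whose end piece is released as endostatin, stood at 558 and 727 CPM in endothelial-like cells, while reticular-like cells held 18.7 and 15.01 CPM. The values were far apart in both mice (log2 fold change 5.20 ± 0.21, edgeR adjusted p = 9.52e-06). After thinning, a Col18a1 UMI was found in 53.3% (95% Wilson interval 44.5 to 61.9) and 62.4% (53.0 to 70.9) of arterial-like cells, in 3.29% and 3.23% of reticular-like cells and in 0.416% and 0.563% of hematopoietic cells. Col15a1 rose from 0.122 and 0.591 to 78.6 and 158 CPM, with a log2 fold change of 8.05 ± 0.53 (edgeR adjusted p = 6.38e-05).

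For type IV collagen the difference was modest, and reticular-like cells also held much of it. Col4a1 stood at 1670.4 and 2268 CPM in endothelial-like cells against 1137 and 1296 CPM (log2 fold change 0.64 ± 0.17, edgeR adjusted p = 0.0242), and Col4a2 at 1073 and 1372 against 529 and 634 CPM (log2 fold change 1.01 ± 0.17, edgeR adjusted p = 0.00328). After thinning, a Col4a1 UMI was found in 85.2% and 87.2% of arterial-like cells, in 83.5% and 87.8% of reticular-like cells and in 4.43% and 10.8% of hematopoietic cells.

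Col6a5 (2.62 and 16.3 CPM), Col6a1 (66.6 and 158 CPM), Col5a1 (25.2 and 31.98 CPM) and Col5a3 (9.96 and 25.2 CPM) fell in endothelial-like cells, with log2 fold changes of -4.62 ± 0.44, -3.87 ± 0.39, -3.54 ± 0.15 and -3.77 ± 0.31. Col1a1 did not pass the test, with 723 and 808 CPM against 663 and 1102 CPM (log2 fold change -0.26 ± 0.24, edgeR adjusted p = 0.405). That level came from few cells: 1 cell held 93.8% and 72.9% of the Col1a1 UMIs of the class in the respective mice. Without the 5 cells with the most collagen UMIs in each class and mouse, an alternative added after seeing the data, Col1a1 in endothelial-like cells stood at 26.7 and 138 CPM and was lower than in reticular-like cells (log2 fold change -3.42 ± 0.67, edgeR adjusted p = 0.0068). These cells were picked by their collagen content, so the direction of the shift in level is set by the choice. On that setting 6 chains were higher and 18 lower of 30, with 48.9% of genes called. With either mouse left out 13 of the 21 called chains with described levels were still called; Col18a1 and Col15a1 were among them and Col4a1 and Col4a2 were not.

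The endothelial-like class was made of 122 and 109 arterial-like cells (Gja4, Sema3g) and 28 and 27 sinusoidal-like cells (Stab2, Gpr182). Arterial-like cells were higher in Col4a1, Col4a2, Col15a1 and Col18a1. Of 19 chains tested 4 were higher and 12 lower in arterial-like than in sinusoidal-like cells, where 21.2% of all 8380 genes tested were called (9.15% higher, 12.0% lower, and 17.9% of the genes outside those used for clustering). Col4a1 stood at 1953 and 2593 against 785 and 1142 CPM (log2 fold change 1.11 ± 0.24, edgeR adjusted p = 0.0154), and Col4a2 at 1279 and 1589 against 425 and 617 CPM (log2 fold change 1.33 ± 0.23, edgeR adjusted p = 0.00614).

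Col18a1 stood at 733 and 934 CPM in arterial-like cells and at 10.8 and 4.69 CPM in sinusoidal-like cells, a log2 fold change of 6.58 ± 0.34 (edgeR adjusted p = 3.22e-05). Col15a1 stood at 104 and 203 against 0 and 2.34 CPM (log2 fold change 6.82 ± 0.81). Neither chain overlapped between the vessel classes, and both were near absent from the sinusoidal-like cells.

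The lower calls rested partly on single cells. Col1a1 stood at 21.4 and 226 CPM in arterial-like and at 2925 and 2832 CPM in sinusoidal-like cells (log2 fold change -4.66 ± 0.83, edgeR adjusted p = 0.0066), but 1 sinusoidal-like cell in each mouse held 96.0% and 93.1% of its UMIs. Without the 5 cells with the most collagen UMIs the sinusoidal-like level of Col1a1 was 41.9 and 239 CPM, and the difference was not called (log2 fold change -1.09 ± 0.74, edgeR adjusted p = 0.34). On that setting 5 chains were higher and 5 lower of 15 tested, with 21.8% of genes called. Col6a3 remained lower (log2 fold change -5.82 ± 0.35), and Col8a1 became higher in arterial-like cells (log2 fold change 2.56 ± 0.36, edgeR adjusted p = 4.21e-04). The cells left out were picked by collagen content, from 28 and 27 sinusoidal-like but 122 and 109 arterial-like cells. That choice favours higher chains in arterial-like cells, so no conclusion is drawn from the Col8a1 call. Over all sinusoidal-like cells 4 of 6 osteoblast markers had UMIs, and Dmp1 and Phospho1 were at 0. In the 5 sinusoidal-like cells with the most collagen the 6 markers summed to 259 and 266 CPM, against 25.8 and 39.8 CPM in the others. Preosteoblast markers were also higher in these 5 cells, with 3923 and 1422 against 258 and 757 CPM. Reticular markers were higher too, with 3571 and 5975 against 1014 and 2075 CPM. The source of this RNA was not tested. With no filter on low counts 2 of 35 chains were called between the vessel classes, where 3.43% of genes were called. With Mouse #1 left out, in the fit over all classes, 7 were called (6.64% of genes), against 17 with both mice (17.3%); Col4a1 and Col4a2 were among those lost with a mouse left out, and Col18a1 and Col15a1 were not lost.

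**Figure D4:**
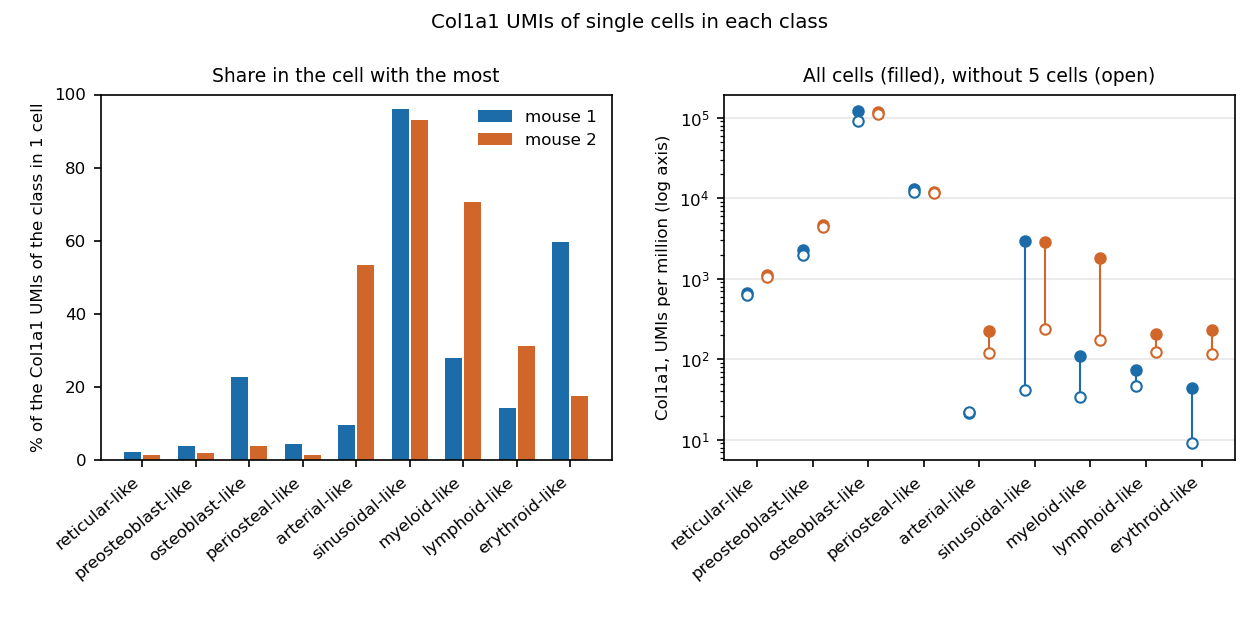
The bars give the percent of the Col1a1 UMIs of each class and mouse that 1 cell held, and the points give Col1a1 in UMIs per 1000000 on a log axis for all cells (filled) and without the 5 cells with the most collagen UMIs (open). In sinusoidal-like cells 1 cell held 96.0% and 93.1%, and the level went from 2925 and 2832 to 41.9 and 239.

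Blood cells served as the background for shares of cells with a UMI, although whether they make a chain themselves was not tested. Against hematopoietic cells, reticular-like cells were higher in 20 and lower in 2 of 29 chains, where 74.5% of all 13736 genes tested were called (37.4% higher, 37.2% lower, and 72.6% of the genes outside those used for clustering). Endothelial-like cells were higher in 8 of 26 chains and lower in none by edgeR with 60.2% of all 12632 genes called (28.2% higher, 32.1% lower, and 56.5% of the genes outside those used for clustering); with mouse as a block 9 were higher and 3 lower (61.2% of genes called). Col4a1 and Col4a2 exceeded their level in hematopoietic cells in both comparisons, with log2 fold changes of 3.64 ± 0.23 and 3.55 ± 0.33 in reticular-like cells and of 4.24 ± 0.27 and 4.53 ± 0.35 in endothelial-like cells; the 2 comparisons share the hematopoietic sums.

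For the 28 described chains the level in hematopoietic cells was at the median 0.0764 and 0.141 of that in free RNA, and at most 0.140 and 0.504 of it. No chain therefore exceeded free RNA in hematopoietic cells of either mouse. Free RNA is a makeup and not an amount added to a cell, so this does not show that blood cells lack a chain. Among single lineages, Col5a1 in erythroid-like cells held 0.218 and 0.265 of free RNA, beside medians of 0.0316 and 0.0939. Col25a1, a low chain, held 0.636 and 0.841 in lymphoid-like cells, beside medians of 0.101 and 0.0870. The source of this RNA was not tested. After thinning, 8.03% and 22.5% of hematopoietic cells had a Col1a1 UMI, against 45.4% and 61.0% of reticular-like cells.

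The blood cells of the mice differed in type I collagen. Col1a1 stood at 111 and 1827 CPM in myeloid-like, at 73.9 and 208 CPM in lymphoid-like and at 44.3 and 228 CPM in erythroid-like cells. In Mouse #2 a single myeloid-like cell held 70.5% of the Col1a1 UMIs of that class, and without the 5 cells with the most collagen the levels were 34.0 and 176 CPM. Collagen was 26.9% of the UMIs of the top myeloid-like cell in Mouse #2 and 3.85% in Mouse #1. All 6 osteoblast markers had UMIs in the myeloid-like cells of Mouse #2. They summed to 1584 CPM in the 5 cells with the most collagen, against 36.6 CPM in the remaining cells. Preosteoblast markers summed to 2353 against 328 CPM and reticular markers to 4735 against 2147 CPM. In Mouse #1 the osteoblast sums were 102 against 14.8 CPM and the reticular sums 5806 against 1776 CPM. The source of this RNA was not tested.

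The pooled comparison moved with these cells. Col1a1 did not differ by the test between reticular-like and hematopoietic cells (log2 fold change 0.34 ± 1.00, edgeR adjusted p = 0.773), and without the 5 cells per class and mouse it was higher in reticular-like cells (log2 fold change 2.44 ± 0.75, edgeR adjusted p = 0.024). These 5 cells were picked by their collagen content after seeing the data, so the direction of the shift in hematopoietic level is set by the choice. Col11a2, called lower in reticular-like cells (log2 fold change -2.23 ± 0.77, edgeR adjusted p = 0.0415), had a log2 fold change of 0.06 without them. Of all chains 23 were then higher and 1 lower, with 75.4% of genes called. The lower chain was Col25a1 (log2 fold change -1.64 ± 0.49, edgeR adjusted p = 0.0221). Over all cells its means were low, with 0.408 CPM in reticular-like, 3.37 CPM in lymphoid-like and 0.428 CPM in myeloid-like cells.

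Reticular-like cells were also split by the reporter, since tdTomato marks cells in which the Cxcl12-iCreER transgene was active a week before. A cell counted as tdTomato-positive above the 99th percentile of blood cells of its mouse (8.63 and 14.6 UMIs per 10000), which gave 500 and 983 positive and 749 and 1466 negative cells. The paper reports occasional tdTomato+ cells in mice without tamoxifen, mostly in the blood and endothelial fraction. Blood cells are thus not a sure negative, and weakly positive reticular-like cells may count as negative. No chain of 29 was called by edgeR at an adjusted p under 0.05, where 0.00% of all 12198 genes were called; at an unadjusted p under 0.05 there were 5 chains and 463 genes. DESeq2 called 1 chain and 0.0574% of genes. With mouse as a block, which takes out the difference between the animals, 2 chains were higher and 6 lower in positive cells, and 5.39% of genes were called. The adjusted p-values of the block lean on a spread pooled over genes, and their size is no measure of the evidence from 2 mice.

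Col8a1 stood at 744.8 and 485 CPM in tdTomato-positive and at 1240 and 822 CPM in tdTomato-negative reticular-like cells. Within each mouse the positive cells were lower, while Mouse #1 positive and Mouse #2 negative cells lay close together (log2 fold change -0.72 ± 0.26, adjusted p = 0.988; with the block adjusted p = 2.61e-48). Col6a5 stood at 261 and 294 against 184 and 189 CPM (log2 fold change 0.60 ± 0.09, adjusted p = 0.988; with the block adjusted p = 1.82e-22). Col5a3, with 160 and 207 against 264 and 258 CPM, and Col1a1, with 591 and 936 against 712 and 1212 CPM, had lower levels in the positive cells of each mouse (with the block adjusted p = 5.99e-14 and 8.67e-08). Col4a1, Col3a1 and Col1a2 had log2 fold changes of -0.05 ± 0.11, -0.01 ± 0.10 and -0.01 ± 0.20.

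Chains that assemble together were compared within a class as ratios of UMIs, which are not ratios of molecules per length but can be set against each other between classes. Col1a1 to Col1a2, which join in a fixed proportion in type I collagen, had a ratio of 0.273 and 0.331 in reticular-like, 0.755 and 0.964 in preosteoblast-like, 1.21 and 1.14 in periosteal-like and 1.65 and 1.49 in osteoblast-like cells. These 4 classes did not overlap, and the reticular-like cells were lowest among them in both mice. Free RNA had a ratio of 0.872 and 1.02. Col4a1 to Col4a2 varied less, with 2.15 and 2.05 in reticular-like, 1.70 and 1.87 in periosteal-like and 1.53 and 1.63 in arterial-like cells. Col11a1 to Col11a2 stood at 1.99 and 2.18 in osteoblast-like cells and at 45.8 and 26.5 in preosteoblast-like cells.

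**Figure D5:**
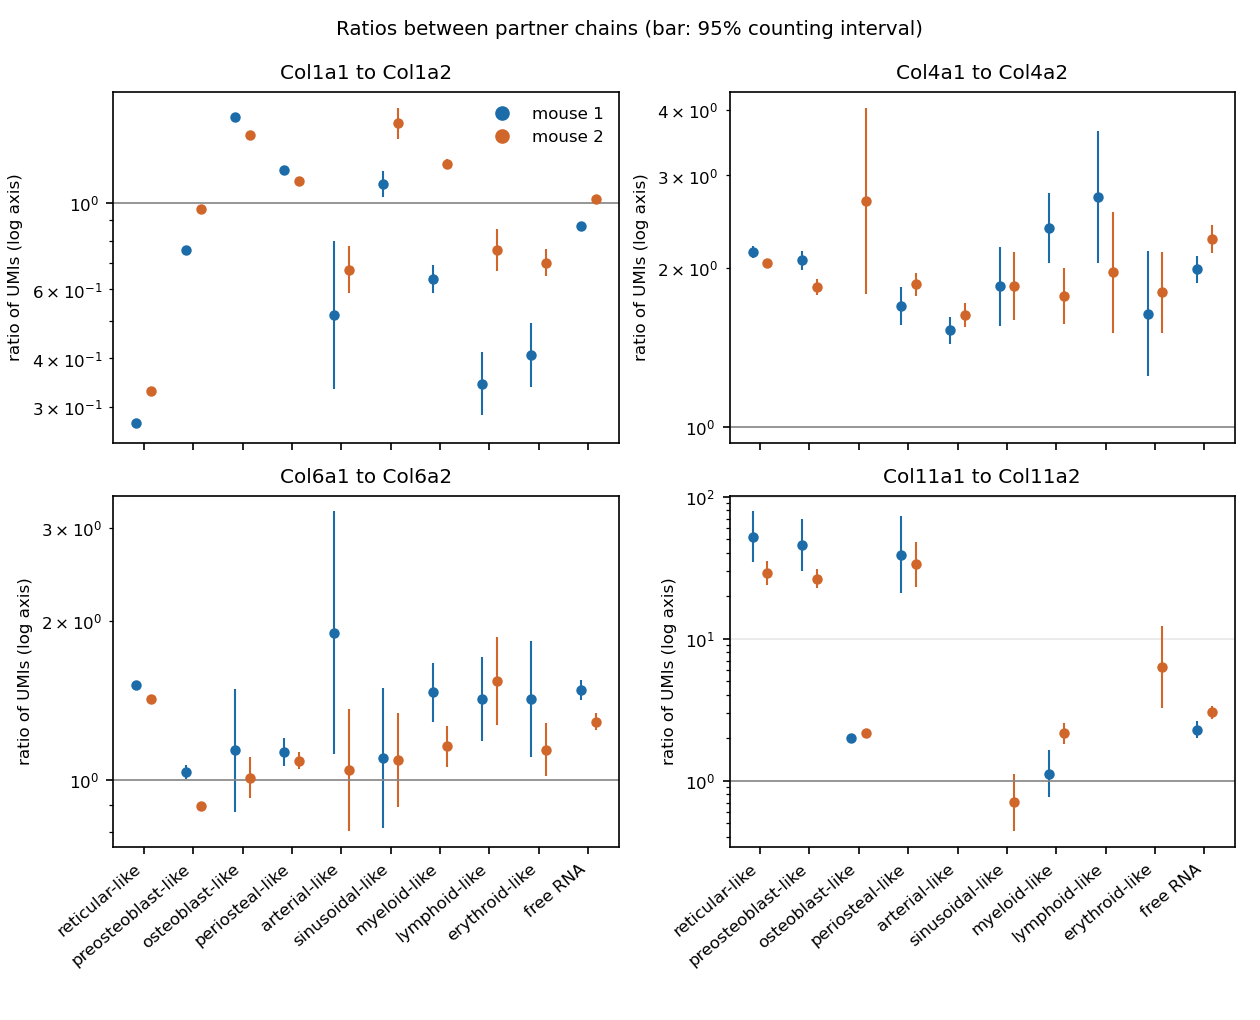
Ratio of UMIs of 4 pairs of partner chains in each class and in free RNA, on log axes, with 1 point per mouse and bars for the 95% counting interval; a class with too few UMIs has no point. Col1a1 to Col1a2 lies at 0.273 and 0.331 in reticular-like cells and at 1.65 and 1.49 in osteoblast-like cells.

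Genes that modify, cross-link, cleave or bind collagen (38 genes, among them prolyl hydroxylases, lysyl oxidases and collagen-binding integrins) were tested with the chains. Between reticular-like and preosteoblast-like cells 10 of 36 tested were higher and 6 lower (29.4% of all genes called); 5 were called without Mouse #1 (9.28% of genes) and 3 without Mouse #2 (5.0%) in the fit over all classes, against 11 with both (23.1%). P3h2, a prolyl 3-hydroxylase, had 72.5 and 78.4 CPM in reticular-like cells, where preosteoblast-like cells had 10.9 and 12.2 CPM (log2 fold change 2.76 ± 0.12), and Lox, a lysyl oxidase that cross-links collagen, had 573.5 and 456.6 against 185.0 and 233.9 CPM (log2 fold change 1.36 ± 0.18). The integrin chain Itga2 was low in both classes, with 2.86 and 3.42 against 1.55 and 1.04 CPM, and higher with a log2 fold change of 1.41 ± 0.32. Itga10, an integrin chain that binds collagen, had 1.52 and 1.51 CPM, and 21.9 CPM in the preosteoblast-like cells of both mice (log2 fold change -3.78 ± 0.16), Bmp1, which cuts the end from procollagen, had 109 and 125 against 250.3 and 223 CPM (log2 fold change -0.95 ± 0.11), and Fkbp10, a chaperone of procollagen, had 159 and 169 against 275 and 256 CPM (log2 fold change -0.63 ± 0.09). In osteoblast-like against preosteoblast-like cells 22 of 34 were higher and 5 lower (32.8% of all genes called), in periosteal-like against reticular-like cells 9 of 36 were higher and 6 lower (22.5% of genes), and in endothelial-like against reticular-like cells 4 of 35 were higher and 26 lower (49.7% of genes).

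The 16 remaining chains had their highest class mean between 0.0381 and 7.49 CPM and held 1224 UMIs in all. The lowest of the described chains, Col25a1, had a highest class mean of 16.9 CPM. Of the 44 chains 8 were tested in no comparison because their counts were too low. At this depth the lack of UMIs of such a chain in a class does not show that it is absent.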

How the data were processed

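Cells of 2 mice were sequenced with the 10x Chromium 3′ v3 chemistry. The authors deposited UMI counts per gene and barcode, unfiltered and not normalized, from Cell Ranger 3.0.0 per the file headers. The submitters' processing notes name the mm10 build and Seurat, and the annotation release is not given in the sources used here. Strand use in counting is likewise not given, so reads from stretches where genes overlap may not be told apart. Col4a1 and Col4a2 overlap only at their starts, away from the 3′ ends that the reads came from.

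A barcode was kept as a cell when it held 1000 or more genes and no more than 15% of its UMIs were mitochondrial, which left slightly more cells per mouse than the study states. Cells were clustered in scanpy 1.11.5 (2000 variable genes, 30 principal components, 15 neighbours, Leiden resolution 0.5), leaving out collagen, collagen-processing, mitochondrial and reporter genes. A cluster took a name when at least 3 markers of that name were at least 1.5 times the mean of the other clusters and detected in at least 10% of its cells. The class names were rebuilt here and may differ from those of the study. Of 17 clusters 2 stayed unnamed. Scrublet's automatic threshold marked 2 and 3 cells and had therefore not worked, so doublets were kept; removal of the 60 and 167 top-scoring cells was an alternative.

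UMI counts were summed per mouse and class and tested with edgeR 4.0.16 in R 4.3.3 (TMM, filterByExpr, quasi-likelihood test, Benjamini-Hochberg over all genes tested, calls at adjusted p under 0.05), without a block. The same animals gave both classes of each comparison, so the mouse numbers pair the sums; same-mouse deviations correlated with r between 0.078 and 0.504, and mouse as a block was an alternative. Several comparisons share the sums of a class. Each edgeR p-value rests on 2 mice and on a spread pooled over the genes tested, so it does not measure the spread of 1 chain alone. The SE was derived from that p-value. With mouse as a block still less of the spread comes from the chain, and the size of those adjusted p-values is no measure of the evidence from 2 mice. Intervals and limits of a zero count (3 UMIs) cover counting error only. The test was also run on simulated sums for reticular-like minus preosteoblast-like and osteoblast-like minus preosteoblast-like cells. Every gene had the same spread there, with no pairing by mouse and no outlier cells, so that check does not cover these. Other alternatives were DESeq2 1.42.0, no filter on low counts, leaving out a mouse, other clustering settings and stricter cell limits (2000 genes, 10% mitochondrial). A mouse was left out of the 2 classes compared only, in the fit over all classes, and its sums stayed in the other classes, which gave the spread. Scaling by total UMIs, and leaving out the 5 cells with the most collagen UMIs per class and mouse, were added after seeing the data.

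A chain was described with its levels when its mean over the mice reached 10 CPM in a named class, and of the processing genes the 3 called with the largest fold change in each direction were named. The members and lists were chosen with earlier results of these data known.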

Additional observations from a re-analysis of the deposited data

Results flagged for a closer look

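Collagen UMIs were also found in the 2 clusters that took no cell type name and entered no comparison. In the cluster of shallow cells (55 cells of Mouse #1 and 123 of Mouse #2) the collagen chains made up 1.10% and 1.29% of UMIs (mean over the mice 1.20%). In the cluster led by Acta2, Fam64a and Ckap2 (66 and 82 cells) they made up 1.73% and 1.97% (mean 1.85%). Both shares lay above the 0.0747% and 0.290% of hematopoietic cells. Free RNA, as a makeup and not as an amount added to a cell, held 1.08% and 1.80%. The first cluster lay just above this makeup in Mouse #1 and below it in Mouse #2, while the other lay above it in both mice.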

How the results depend on the processing

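The counts of chains called kept their size within 1.5 times in all 8 comparisons under median-ratio scaling, total UMIs, stricter limits on cells, removal of the highest doublet scores, clustering at resolution 1 and collagen genes among the clustering genes. With a mouse left out, in the joint fit, reticular-like minus preosteoblast-like cells gave 6 to 7 called chains, periosteal-like minus reticular-like cells 4 to 5, endothelial-like minus reticular-like cells 14 to 15, arterial-like minus sinusoidal-like cells 7 to 12, and the processing genes 3 to 5, against 11, 13, 20, 17 and 11 with both mice in the joint fit and 16, 15, 22, 16 and 16 in the separate fits. Without a filter on low counts 2 chains were called between arterial-like and sinusoidal-like cells and 4 between tdTomato-positive and tdTomato-negative cells; DESeq2 called 1 in the latter. Without the 5 cells with the most collagen, 10 were called between arterial-like and sinusoidal-like cells. With the replicate block (mouse), 8 chains were called for tdTomato against 0 without it; over all comparisons the block brought 25 single fold changes past the threshold and lost none, and it changed no other call. Signs turned for Col11a2, reticular-like minus hematopoietic (log2 fold change 0.063 without the 5 cells, against -2.23), and for Col1a2, endothelial-like minus hematopoietic (1.56 without replicate 2, against -0.08); the cause was not tested. TMM moved the log2 scale by -0.32, -0.41, 0.86 and -0.13 for reticular-like and endothelial-like minus hematopoietic, osteoblast-like minus preosteoblast-like and arterial-like minus sinusoidal-like cells. Depth limits the 16 low chains and the classes of 14 to 62 cells.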
